A study of Mus musculus with 15 samples.

Results

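The interferon response genes described here are 42 mouse genes that interferons are known to switch on. They were taken from a list of names, not by a threshold on their values, and all 42 were found among the 40174 gene symbols of the count tables. All 42 also passed the filter on low counts that left 17588 genes for testing. The tables hold total RNA sequencing counts from the left ventricle of C57BL/6 mice at an age of 2 months, made to study 2 mutations of Rbm20, a splicing regulator of heart muscle. Mice of the G-line carry the S639G substitution and mice of the A-line the S637A substitution. G-line HOM (S639G, written -/- in the labels), G-line HET (S639G, +/-), A-line HOM (S637A, -/-), A-line HET (S637A, +/-) and WT each have 3 labelled libraries. How the alleles were made, and whether each library comes from a separate animal, is not stated in the labels, so the p-values given here reflect the variation among libraries, part of which may be technical.

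For A-line HOM, the columns of replicates 2 and 3 held the same counts as the WT columns of those numbers, in all 40174 symbols. Each of these libraries was used once, as WT, which leaves 13 distinct libraries and a single library, replicate 1, for A-line HOM. The labels do not decide which genotype the pair has, and every comparison with WT or with A-line HOM rests on that choice. Total counts were 20324529 to 29436407 in G-line HOM, 23714906 to 28121438 in G-line HET, 17507813 in the A-line HOM library, 12959087 to 17448328 in A-line HET and 25279202 to 26549906 in WT. Mitochondrial ribosomal RNA took 10.8% to 13.5% of counts in G-line HOM, 15.4% to 16.7% in G-line HET, 15.1% in the A-line HOM library, 13.2% to 17.1% in A-line HET and 20.2% to 23.4% in WT. The counts of called members in all 7 comparisons were the same when mitochondrial genes, ribosomal RNA genes, Y-linked genes and Xist were left out. The 10 cardiomyocyte markers summed to 46282 to 50917 CPM (counts scaled to library size with TMM factors) in G-line HOM, below the range of WT, 54489 to 61692 CPM in G-line HET, 52780 CPM in the A-line HOM library, 47051 to 58337 CPM in A-line HET and 56081 to 62318 CPM in WT. The atrial transcript Myl7 reached 10 CPM in G-line HOM replicate 1, A-line HET replicate 3 and WT replicate 2, and the clock gene Arntl reached 20 CPM in G-line HOM replicate 1 and A-line HET replicate 2. A count per gene cannot show a substitution, so the Rbm20 genotype was not checked here.

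Type I interferons are secreted when a cell senses viral or misplaced nucleic acid, and type II interferon (interferon gamma) is made mainly by T and NK cells. Type I interferon acts largely through a complex with STAT2 and IRF9 that binds the interferon-stimulated response element (ISRE), while interferon gamma acts at the gamma-activated site (GAS). The genes switched on encode sensors of nucleic acid, transcription factors that amplify the response, and effectors that block viral RNA, attack pathogen vacuoles or prepare peptides for T cells. In the heart the same genes can be expressed by muscle, endothelium, fibroblasts and resident macrophages. In these bulk samples fewer cells of a type and less RNA per cell cannot be told apart.

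The start regions of 7 members are shown with matches to these elements. The RefSeq promoter table (GRCm38.p6, 250 bases before to 50 bases after each annotated start) held 39 windows of 32 members. The other 10 members are Oas2, Mx1, Mx2, Usp18, Dhx58, Gbp6, Iigp1, Rtp4, Zbp1 and Parp14. The ISRE core was searched as TTTCNNTTTC and its reverse complement GAAANNGAAA, and the GAS core as the palindrome TTCNNNGAA, both on both strands. In the lines below, given 5′ to 3′ on the strand of the gene, capitals mark these matches, with up to 20 bases on each side. Ifit1, Ifit3 and Ifit3b are among the members called higher in G-line HOM than in G-line HET. Rsad2, Gbp5, Gbp7 and Irgm2 are among those called lower in the A-line HOM library than in WT. Ifit2, Ifih1 and Oasl2, also called higher against G-line HET, have windows but are not shown. Of these, Ifih1 held an ISRE core at bases 33 to 42 after the start, Oasl2 neither core and Ifit2 a GAS core alone.
Ifit1: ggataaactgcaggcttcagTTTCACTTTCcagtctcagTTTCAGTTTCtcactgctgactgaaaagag
Ifit3: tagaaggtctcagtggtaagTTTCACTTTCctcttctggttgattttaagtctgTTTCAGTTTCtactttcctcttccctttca
Ifit3b: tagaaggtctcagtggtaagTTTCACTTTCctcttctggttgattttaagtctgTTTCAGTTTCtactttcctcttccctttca
Rsad2: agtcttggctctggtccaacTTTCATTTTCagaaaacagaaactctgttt
Gbp5: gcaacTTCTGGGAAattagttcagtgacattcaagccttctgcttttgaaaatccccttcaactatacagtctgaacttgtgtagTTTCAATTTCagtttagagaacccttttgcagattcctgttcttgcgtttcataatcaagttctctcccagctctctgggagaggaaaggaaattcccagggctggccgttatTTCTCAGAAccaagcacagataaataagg
Gbp7: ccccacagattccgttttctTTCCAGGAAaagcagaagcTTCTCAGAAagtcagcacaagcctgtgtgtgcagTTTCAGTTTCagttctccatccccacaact
Irgm2: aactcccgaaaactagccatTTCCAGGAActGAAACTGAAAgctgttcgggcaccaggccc
Ifit1 lies on chromosome 19 at chr19:34640765-34640833 (plus strand), Ifit3 at chr19:34583353-34583436 (plus strand) and Ifit3b at chr19:34607749-34607832 (plus strand). Rsad2 is at chr12:26456543-26456592 (minus strand), Gbp5 at chr3:142496684-142496910 (plus strand), Gbp7 at chr3:142530210-142530312 (plus strand) and Irgm2 at chr11:58214882-58214942 (plus strand). The stretches of Ifit3 and Ifit3b were identical in 84 of 84 bases, each with a pair of ISRE cores. Gbp5, Gbp7 and Irgm2 held both elements, whereas Ifit1, Ifit3, Ifit3b and Rsad2 held the ISRE core alone. Over all members with a window, 18 held the ISRE core (19 of 39 windows) and 11 the GAS core (11 of 39 windows), against 3.44% and 8.3% of all 32851 windows in the table. Of the 32 members, 6 held both cores and 9 held neither. Windows of members can share bases between matches: the GAS core of Bst2 overlaps an ISRE core, and the 3 ISRE cores of Isg15 overlap each other. The windows of Ifit2 held a GAS core and no ISRE core. Matches are descriptions of these letters and not of binding.

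**Figure D1:**
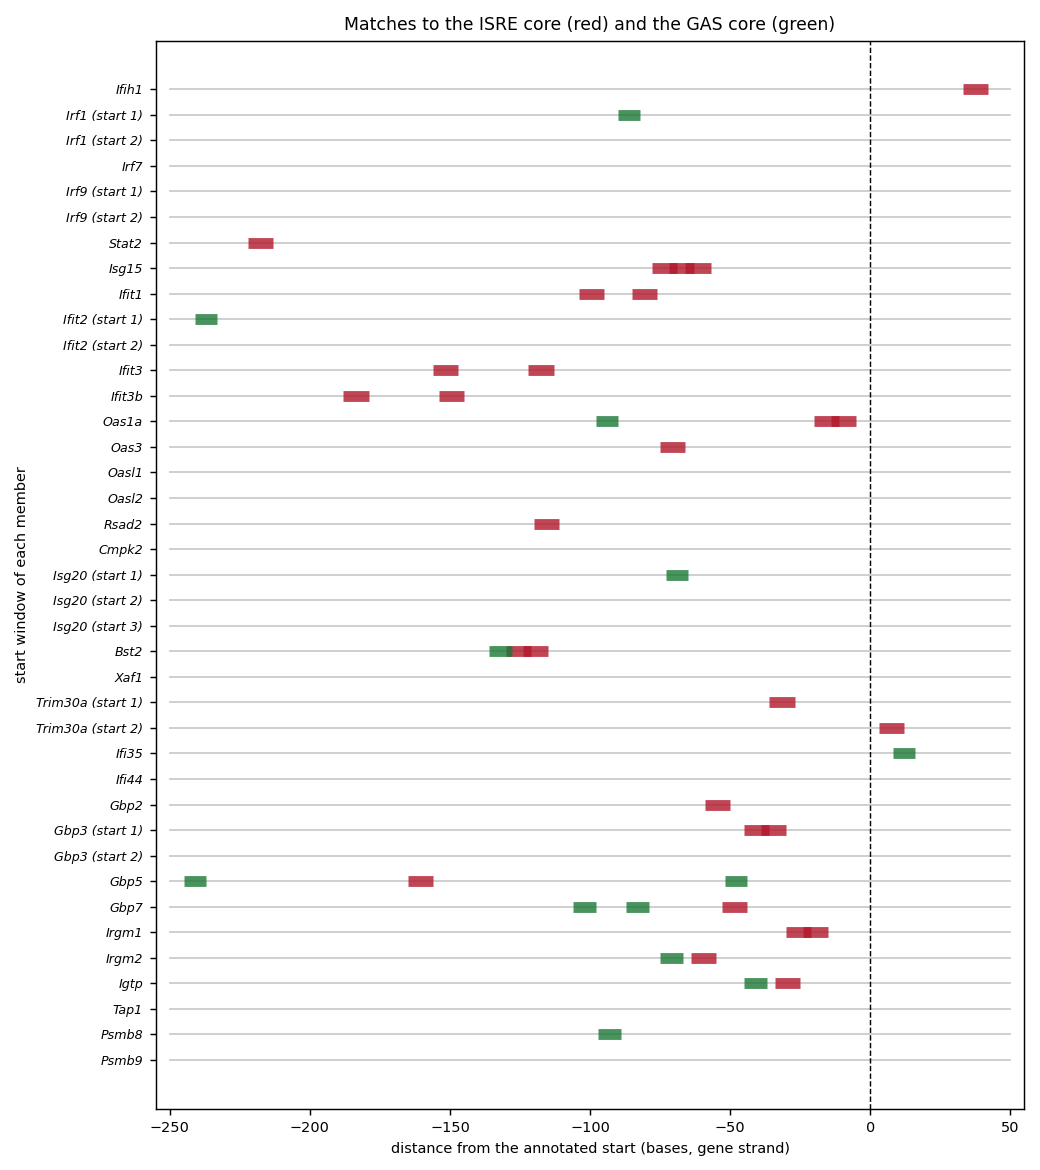
Position of matches to the ISRE core (red) and GAS core (green) in the 39 start windows of 32 members. The x axis is the distance in bases from the annotated start on the gene's strand, and each grey line is 1 window. Most ISRE matches lie upstream of the start.

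On a scale of level per length (WT mean CPM per kilobase of annotated exon), Iigp1 was highest at 16.3, followed by Ifit3 at 10.2, Gbp2 at 9.88, Bst2 at 9.59 and Gbp7 at 8.78. Zbp1 at 0.270, Mx1 at 0.241 and Oas3 at 0.0533 were lowest. The summed level of all 42 members was 698 ± 50.4 CPM in G-line HOM (SD, n = 3), 621 ± 57.9 CPM in G-line HET (SD, n = 3), 458 CPM in the A-line HOM library, 652 ± 68.1 CPM in A-line HET (SD, n = 3) and 706 ± 95.1 CPM in WT (SD, n = 3). The A-line HOM library was below all other 12 libraries in this sum. The ranges of the other groups overlapped.

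**Figure D2:**
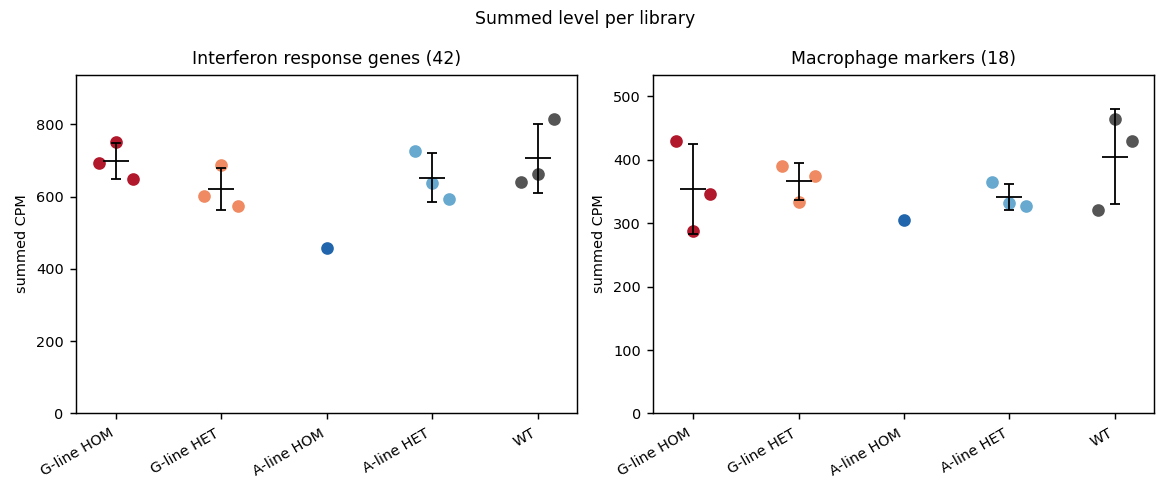
Summed CPM per library of the 42 interferon response genes (left) and of 18 macrophage markers (right). Points are libraries, bars are the mean and SD of a group, and A-line HOM has 1 library. The A-line HOM library has the lowest member sum, 458 CPM, and its macrophage sum of 305 CPM lies below all libraries but G-line HOM replicate 2 (288 CPM).

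A member is called here where edgeR's adjusted p, with all 13 libraries in the fit, was under 0.05; calls of another fit are named as such. In G-line HOM against WT, 5 members rose (Ifit1, Ifit2, Ifit3, Mx1 and Rtp4) and 1 fell (Gbp6). This is 6 of 42, where 26.4% of all genes tested were called, and by direction 13.1% of all genes were called higher and 13.3% lower. The median log2 fold change of the members was 0.09, against 0.01 over all genes, and 23 members had a positive and 19 a negative log2 fold change. By sign alone, all 4 Ifit members, all 7 other antiviral members, all 3 nucleic acid sensors, Isg15 and Usp18 were positive. All 5 guanylate-binding proteins, all 4 immunity-related GTPases and all 3 antigen-processing members were negative. The other roles were mixed: 4 of 5 oligoadenylate synthetases, 1 of 4 transcription factors, 1 of 3 nucleotide and RNA effectors and 1 of 2 Mx members were positive. Several values were smaller than their SE, such as Xaf1 (0.03 ± 0.16), Parp14 (0.09 ± 0.10), Irgm1 (-0.02 ± 0.10) and Psmb8 (-0.04 ± 0.16). The signs per role were the same with size factors of DESeq2 in place of TMM factors. With the shared pair counted as A-line HOM or left out, 31 members were positive and 11 negative. In both settings 3 of 4 transcription factors and 5 of 5 oligoadenylate synthetases were positive. Among the roles that were all negative above, 2 of 5 guanylate-binding proteins, 1 of 4 immunity-related GTPases and 2 of 3 antigen-processing members became positive. Without WT replicate 3, 2 of 3 antigen-processing members were likewise positive. In the same comparison 5 of the 10 cardiomyocyte markers fell and 1 rose, and the 4 atrial markers summed to 4694 to 8003 CPM in G-line HOM, against 77.6 to 2395 CPM in WT. Of the 4, 1 was positive and 3 were negative, with a median log2 fold change of -2.84. The positive one, Nppa, was the only one called. It rose to a mean of 6457 CPM, against 449 CPM in WT (log2 fold change 3.85, adjusted p = 0.0462). The part of these in the result was not tested.

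In G-line HOM against G-line HET, which uses neither library of the doubtful pair except in the shared estimate of spread, 7 members rose (Ifit1, Ifit2, Ifit3, Ifit3b, Rtp4, Ifih1 and Oasl2) and 0 fell. Over all genes 14.6% were called in this comparison, 6.22% higher and 8.42% lower. The members' median log2 fold change was 0.21, against 0.04 over all genes, and 35 of 42 were positive. At an unadjusted p under 0.05, 13 members were higher and 1, Iigp1, was lower, against 14.8% and 15.2% of all genes. With the pair counted as A-line HOM, or as both, 4 members were called (Ifit1, Ifit2, Ifit3 and Rtp4) where 7.11% and 11.2% of all genes were called, and 35 of 42 stayed positive.

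In the A-line HOM library against WT, 6 members fell (Gbp5, Gbp6, Gbp7, Irgm2, Ifit3b and Rsad2) and 0 rose, where 4.68% of all genes were called, 2.82% higher and 1.86% lower. The log2 fold change was negative in 40 of 42 members, all but Ifit2 and Isg20, with a median of -0.65, against -0.01 over all genes. At an unadjusted p under 0.05, 21 members were lower and 0 higher, against 9.03% and 9.79% of all genes. The library lay below every WT library in 37 members, as did 34.4% of all genes. It lay below all 12 other libraries in 29 members, as did 5.96% of all genes. All of this rests on 1 library, and with the shared pair counted as A-line HOM 0 members were called (0% of all genes were called), 19 were negative and the median was 0.03. DESeq2, with all 13 libraries, called 12 members lower (7.19% of all genes were called). In the transcript of Atf3, a transcription factor induced by stress, this library also stood apart, at 115 CPM, against 12.8 to 16.3 CPM in G-line HOM, 7.55 to 23.2 CPM in G-line HET, 6.76 to 12.6 CPM in A-line HET and 1.59 to 3.82 CPM in WT. The part of that difference in the result was not tested.

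In G-line HET, Ifi35 rose and Gbp6 fell, 2 of 42 members where 7.52% of all genes were called (3.97% higher, 3.54% lower), and 35 members were negative, with a median of -0.20, against -0.01 over all genes. In A-line HET only Gbp6 was called, and it fell, 1 of 42 members where 7.96% of all genes were called (3.99% higher, 3.97% lower). The median of the members was -0.15, against 0.02 over all genes. With the shared pair counted as A-line HOM the medians were -0.02 in G-line HET and 0.04 in A-line HET. All 4 comparisons with WT share its libraries. WT replicate 3 was the highest WT library in 39 of 42 members, as it was in 30.9% of all genes, and without it 26 members were negative in G-line HET and 24 in A-line HET.

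**Figure D3:**
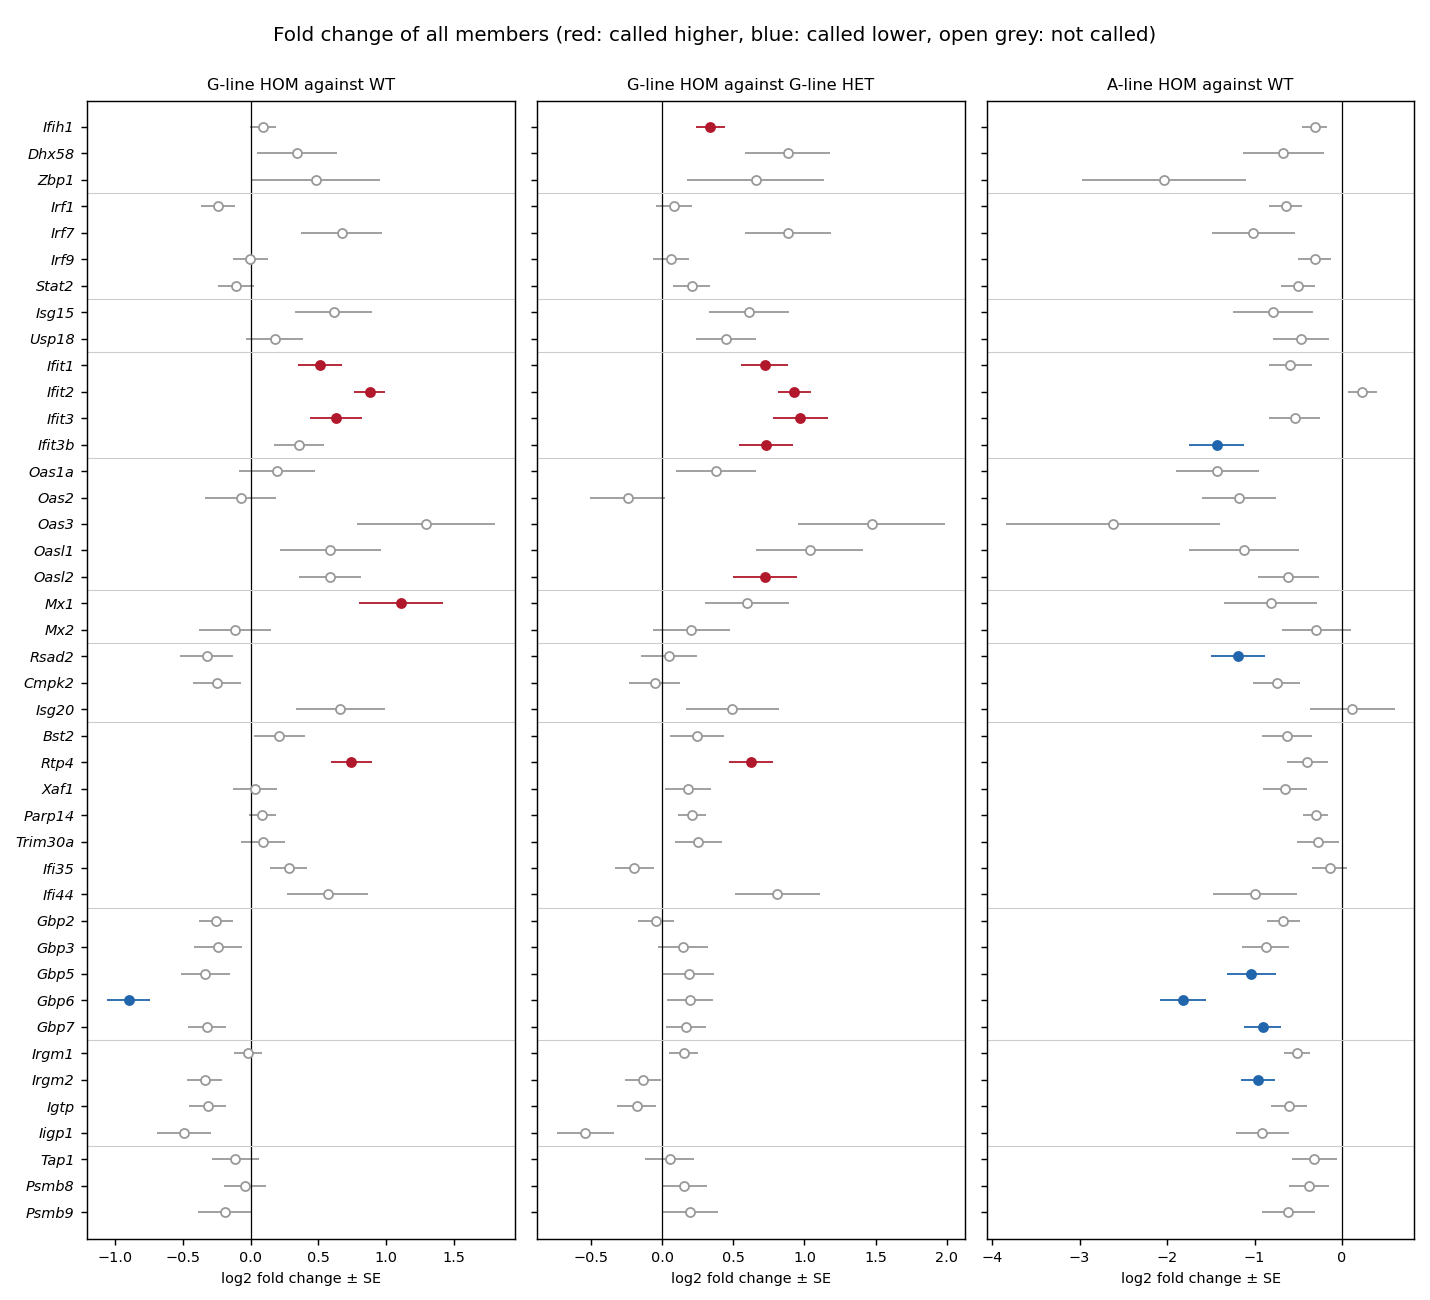
Log2 fold change ± SE of all 42 members in G-line HOM against WT, G-line HOM against G-line HET and the A-line HOM library against WT, grouped by role. Filled red points passed the adjusted threshold as higher, filled blue points as lower, and open points did not pass. The Ifit members lie right of 0 in both G-line HOM panels, and 40 of 42 members lie left of 0 in the A-line HOM panel. The x axes differ in range.

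Upstream of the response, none of the 10 interferon genes looked up (Ifnb1, Ifna1, Ifna2, Ifna4, Ifna5, Ifnk, Ifne, Ifng, Ifnl2 and Ifnl3) passed the filter on low counts. Ifnk had 10 counts over all libraries, Ifng 2, and the other 8 had 0. All 11 receptor and signalling genes passed it. Values in brackets before an adjusted p are log2 fold changes ± SE from edgeR. In G-line HOM the ligand-binding chain of the interferon gamma receptor, Ifngr1, rose to 88.5 ± 12.5 CPM, against 57.0 ± 6.81 CPM in WT (SD, n = 3 each; log2 fold change 0.63 ± 0.11, adjusted p = 0.000819). Its partner chain Ifngr2 fell to 75.1 ± 11.5 CPM, against 163 ± 19.4 CPM in WT (-1.12 ± 0.19, adjusted p = 0.0013). The kinase Jak1 (-0.41 ± 0.10, adjusted p = 0.00701) and Il10rb, a chain shared by the interferon lambda and interleukin receptors (-0.66 ± 0.14, adjusted p = 0.0031), also fell. In this way 1 of the 11 genes rose and 3 fell, where 13.1% of all genes were called higher and 13.3% lower.

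Among the nucleic acid sensors, Ifih1, which encodes the double-stranded RNA sensor MDA5, had 21.9, 23.5 and 22.9 CPM in G-line HOM, 17.3, 20.4 and 16.3 CPM in G-line HET, 17.2 CPM in the A-line HOM library, 21.4, 21.2 and 20.6 CPM in A-line HET, and 21.04, 21.2 and 21.8 CPM in WT. It rose in G-line HOM against G-line HET (0.34 ± 0.10, adjusted p = 0.0336), with all G-line HOM libraries above all G-line HET libraries, as in 17.9% of all genes. Against WT, the log2 fold changes were 0.09 ± 0.10, adjusted p = 0.547, in G-line HOM, and -0.25 ± 0.10, adjusted p = 0.144, in G-line HET. The call ended without any 1 of G-line HET replicates 1 or 3 or the 3 G-line HOM replicates (adjusted p = 0.0529 to 0.126), and under all 3 other treatments of the shared pair (0.0507 to 0.0879). Dhx58, a helicase that tunes MDA5, had 3.78, 3.25 and 1.597 CPM in G-line HOM, 1.48, 1.81 and 1.43 CPM in G-line HET, 1.43 CPM in the A-line HOM library, 1.65, 1.75 and 1.65 CPM in A-line HET, and 2.36, 1.74 and 2.75 CPM in WT. G-line HOM replicate 3 was lower than the other 2 libraries of its group, and Dhx58 was not called in G-line HOM against G-line HET (0.88 ± 0.30, adjusted p = 0.062). DESeq2 called it there (0.87, adjusted p = 0.0499), as did edgeR without G-line HOM replicate 3 (1.17, adjusted p = 0.00885). Zbp1, a sensor of nucleic acid in the Z form that can start cell death, had 4 counts in the A-line HOM library and 12 to 64 counts in the other 12 libraries, and was called in no comparison.

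None of the transcription factors described here was called. Irf1, an early factor induced by interferon gamma, had 22.9, 24.2 and 27.4 CPM in G-line HOM, 22.8, 27.5 and 20.1 CPM in G-line HET, 18.7 CPM in the A-line HOM library, 30.02, 24.8 and 25.2 CPM in A-line HET, and 27.1, 28.5 and 32.3 CPM in WT. The A-line HOM library was the lowest of all, and its log2 fold change against WT was -0.65 ± 0.19, adjusted p = 0.0672. DESeq2 called Irf1 lower there (-0.64, adjusted p = 0.0357), as did edgeR fitted to the compared groups alone (0.0335) or without A-line HET replicate 1 (0.0477). Irf9, the DNA-binding partner of STAT2, had 20.96, 19.04 and 15.3 CPM in G-line HOM, 19.3, 16.8 and 16.96 CPM in G-line HET, 14.9 CPM in the A-line HOM library, 20.6, 17.4 and 17.1 CPM in A-line HET, and 17.7, 17.6 and 20.1 CPM in WT. The groups overlapped except for the A-line HOM library, which lay lowest. Stat2 ranged from 12.1 CPM in the A-line HOM library to 19.3 CPM in WT replicate 3. Irf7, the factor that drives interferon alpha genes, had 21.1, 21.1 and 9.53 CPM in G-line HOM, 10.6, 9.54 and 7.95 CPM in G-line HET, 5.37 CPM in the A-line HOM library, 10.4, 8.69 and 8.08 CPM in A-line HET, and 6.87, 12.5 and 13.2 CPM in WT. G-line HOM replicates 1 and 2 were the highest libraries and replicate 3 lay among the others, and against WT the adjusted p was 0.124. Without G-line HOM replicate 3 Irf7 rose against WT (log2 fold change 0.96, adjusted p = 0.00584) and against G-line HET (1.17, adjusted p = 0.00446), and DESeq2 called it higher against G-line HET (0.87, adjusted p = 0.0186).

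The ubiquitin-like modifier Isg15, which is attached to newly made proteins, had 3.75, 4.9004 and 2.21 CPM in G-line HOM, 2.42, 2.202 and 2.49 CPM in G-line HET, 1.37 CPM in the A-line HOM library, 2.52, 2.39 and 2.23 CPM in A-line HET, and 1.804, 2.08 and 3.21 CPM in WT. Its protease Usp18, which also restrains the type I receptor, had 7.07, 7.82 and 4.93 CPM in G-line HOM, 3.74, 6.001 and 4.799 CPM in G-line HET, 4.23 CPM in the A-line HOM library, 5.44, 4.84 and 5.85 CPM in A-line HET, and 5.11, 5.601 and 6.84 CPM in WT. In both genes G-line HOM replicates 1 and 2 were the 2 highest libraries, and neither gene was called in any of the 7 comparisons. Without G-line HOM replicate 3 Isg15 rose against WT (0.87, adjusted p = 0.0235) and against G-line HET (0.86, adjusted p = 0.0375).

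The 4 Ifit genes encode tetratricopeptide proteins, of which Ifit1 binds viral RNA ends lacking the host's cap methylation and holds back its translation. Ifit2 had 50.3, 60.4 and 46.9 CPM in G-line HOM, 28.8, 29.4 and 24.6 CPM in G-line HET, 33.5 CPM in the A-line HOM library, 30.8, 30.7 and 30.05 CPM in A-line HET, and 25.3, 27.4 and 32.98 CPM in WT. Every G-line HOM library was above every other library of the series. The gene rose in G-line HOM against WT (0.88 ± 0.12, adjusted p = 0.000122) and against G-line HET (0.93 ± 0.12, adjusted p = 0.00115). Both calls held under all 25 alternatives tried, with log2 fold changes of 0.77 to 1.05 against WT and 0.82 to 1.003 against G-line HET. The A-line HOM library stood just above the WT range (log2 fold change 0.23 ± 0.17, adjusted p = 0.503), the only Ifit gene with a positive value there.

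Ifit3, a partner that stabilises Ifit1 in human cells, had 30.9, 29.7 and 22.02 CPM in G-line HOM, 13.6, 15.2 and 13.4 CPM in G-line HET, 12.3 CPM in the A-line HOM library, 18.5, 11.95 and 16.1 CPM in A-line HET, and 12.8, 19.7 and 20.97 CPM in WT. The G-line HOM libraries were the 3 highest of all. Ifit3 rose against WT (0.63 ± 0.19, adjusted p = 0.0274) and against G-line HET (0.97 ± 0.19, adjusted p = 0.00723). The call against G-line HET held under all 25 alternatives, whereas that against WT ended without G-line HOM replicate 1, G-line HOM replicate 2 or WT replicate 1 (adjusted p = 0.0898 to 0.105), with the shared pair in both groups (0.0511), and without the libraries with atrial transcripts or those with shifted clock genes (0.117 and 0.0678).

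Ifit1 had 14.9, 15.4 and 10.6 CPM in G-line HOM, 8.28, 7.99 and 8.54 CPM in G-line HET, 6.34 CPM in the A-line HOM library, 9.06, 6.47 and 8.62 CPM in A-line HET, and 8.55, 9.499 and 10.6 CPM in WT. G-line HOM replicates 1 and 2 were highest, and replicate 3 lay within the upper end of WT. Ifit1 rose against WT (0.51 ± 0.16, adjusted p = 0.0301) and against G-line HET (0.72 ± 0.16, adjusted p = 0.0114). The call against WT ended without G-line HOM replicate 1 or 2 or WT replicate 1 or 2 (adjusted p = 0.0681 to 0.127) and with every other treatment of the shared pair (0.0589 to 0.166). It also ended without the libraries with atrial transcripts or those with shifted clock genes (0.172 and 0.0749). Against G-line HET it ended without G-line HOM replicate 2 (adjusted p = 0.0559) or the atrial-transcript libraries (0.0535).

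Ifit3b, the neighbouring copy of Ifit3, had 7.85, 7.87 and 6.86 CPM in G-line HOM, 4.35, 4.75 and 4.51 CPM in G-line HET, 2.17 CPM in the A-line HOM library, 3.704, 3.85 and 5.42 CPM in A-line HET, and 4.595, 6.06 and 6.96 CPM in WT. It rose in G-line HOM against G-line HET (0.73 ± 0.19, adjusted p = 0.0206) with no overlap of libraries, and fell in the A-line HOM library against WT (-1.43 ± 0.31, adjusted p = 0.0188). The first call ended without any 1 G-line HET library or without G-line HOM replicate 1 or 2 (adjusted p = 0.0529 to 0.07), the second without WT replicate 3 (0.0538). The first also ended with the shared pair as A-line HOM or in both groups (0.153 and 0.123), the second under all 3 other treatments of the pair (0.175 to 1). With the shared pair as A-line HOM its log2 fold change against WT was 0.15. Ifit3 and Ifit3b are near-identical in sequence, so how reads were divided between them is uncertain.

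The oligoadenylate synthetases detect double-stranded RNA and make short oligoadenylates that activate the ribonuclease RNase L. Oasl2, a family member with a ubiquitin-like tail, had 16.05, 14.98 and 9.06 CPM in G-line HOM, 8.74, 9.45 and 6.19 CPM in G-line HET, 5.83 CPM in the A-line HOM library, 10.9, 7.58 and 8.72 CPM in A-line HET, and 7.99, 7.87 and 10.9 CPM in WT. It rose in G-line HOM against G-line HET (0.72 ± 0.23, adjusted p = 0.0472), although G-line HOM replicate 3 overlapped the G-line HET range. The call ended without any 1 of 8 libraries (G-line HET replicates 1 to 3, G-line HOM replicates 1 and 2, WT replicates 1 and 2, A-line HET replicate 3; adjusted p = 0.0517 to 0.158), and under all 3 other treatments of the shared pair (0.0616 to 0.104). Oas2 had 9.73, 9.801 and 6.67 CPM in G-line HOM, 9.61, 14.7 and 6.81 CPM in G-line HET, 4.06 CPM in the A-line HOM library, 10.6, 6.12 and 7.34 CPM in A-line HET, and 8.68, 8.78 and 10.2 CPM in WT. Its G-line HET replicate 2 was the highest library, and Oas2 was not called in the A-line HOM library against WT (-1.18 ± 0.42, adjusted p = 0.141). DESeq2 called it lower there (-1.18, adjusted p = 0.0449), as did edgeR fitted to the compared groups alone (0.0195). Oas1a had 1.20 CPM in the A-line HOM library, below the 2.05 to 4.52 CPM of the other 12. Oas3 had 1 count in the A-line HOM library and 2 to 38 counts in the others, and Oasl1, which in mouse restrains translation of Irf7, ranged from 0.425 to 2.41 CPM; neither was called with all libraries, and both rose against G-line HET without G-line HOM replicate 3 (1.81, adjusted p = 0.0253, and 1.31, adjusted p = 0.0287). All 5 genes were negative in the A-line HOM library against WT. Reads may be divided between the Oas1 copies and between the Oasl copies in ways the counts do not show.

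The Mx genes encode dynamin-like GTPases that trap viral particles, and in many laboratory mouse strains Mx1 carries a deletion of coding exons. Mx1 had 2.19, 1.696 and 2.02 CPM in G-line HOM, 1.36, 1.04 and 1.502 CPM in G-line HET, 0.514 CPM in the A-line HOM library, 1.18, 1.11 and 1.49 CPM in A-line HET, and 0.644, 0.795 and 1.29 CPM in WT. The G-line HOM libraries were the 3 highest of all 13, at 36 to 70 counts. Mx1 rose against WT (1.11 ± 0.31, adjusted p = 0.0151), and the call ended without G-line HOM replicate 1, WT replicate 1 or WT replicate 2 (adjusted p = 0.0515 to 0.0694), or with the shared pair as A-line HOM (0.0751). It also ended without the libraries with atrial transcripts or those with shifted clock genes (0.125 and 0.0571). Mx2 ranged from 2.23 to 4.29 CPM over all libraries with overlapping groups and was called in no comparison.

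Among the nucleotide and RNA effectors, Rsad2, which encodes viperin, an enzyme making a chain-terminating nucleotide, had 25.4, 24.3 and 16.6 CPM in G-line HOM, 19.9, 26.6 and 17.8 CPM in G-line HET, 12.2 CPM in the A-line HOM library, 23.2, 21.2 and 14.9 CPM in A-line HET, and 30.3, 25.2 and 27.8 CPM in WT. The A-line HOM library was the lowest of all and WT replicate 1 the highest. Rsad2 fell in the A-line HOM library (-1.19 ± 0.30, adjusted p = 0.0443), a call that ended without any 1 of 6 libraries (the 3 WT libraries, A-line HET replicate 2, G-line HET replicate 1 and G-line HOM replicate 2; adjusted p = 0.0538 to 0.0991). It was also lost under all 3 other treatments of the shared pair (0.145 to 1), with a log2 fold change of -0.35 with the pair in both groups. Its neighbour Cmpk2, a mitochondrial nucleotide kinase, had 6.57 CPM in the A-line HOM library, against 11.03 ± 0.521 CPM in WT (-0.75 ± 0.27, adjusted p = 0.144). A-line HET replicate 3 was lower still in Cmpk2, at 5.69 CPM. Isg20, an RNA exonuclease, was highest in G-line HOM replicates 1 and 2 at 4.38 and 3.35 CPM but was 1.46 CPM in replicate 3, the lowest library of all.

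In the group of other antiviral or signalling members, Rtp4, an interferon-induced protein that inhibits flavivirus replication, had 12.9, 15.5 and 12.5 CPM in G-line HOM, 10.7, 8.202 and 7.62 CPM in G-line HET, 6.17 CPM in the A-line HOM library, 9.69, 10.03 and 8.51 CPM in A-line HET, and 8.07, 7.23 and 9.09 CPM in WT. Every G-line HOM library was above every other library. Rtp4 rose against WT (0.74 ± 0.15, adjusted p = 0.00255) and against G-line HET (0.62 ± 0.15, adjusted p = 0.0163). The call against WT ended with the shared pair as A-line HOM or left out (adjusted p = 0.0856 and 0.0539), and that against G-line HET ended without G-line HET replicate 2, G-line HET replicate 3 or G-line HOM replicate 2 (0.0654 to 0.0796).

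Ifi35, a leucine-zipper protein that partners with Nmi, had 17.9, 18.1 and 17.4 CPM in G-line HOM, 20.9, 21.9 and 18.4 CPM in G-line HET, 13.3 CPM in the A-line HOM library, 21.2, 16.5 and 16.4 CPM in A-line HET, and 13.1, 13.2 and 17.6 CPM in WT. It rose in G-line HET against WT (0.48 ± 0.14, adjusted p = 0.0474) with no overlap of libraries, as in 15.1% of all genes. The call ended without any 1 of 7 libraries (the 3 G-line HET libraries, G-line HOM replicates 1 and 2, WT replicates 1 and 2; adjusted p = 0.0534 to 0.194), and under all 3 other treatments of the shared pair (0.0885 to 0.226). The viral tether Bst2, the ADP-ribosyltransferase Parp14, Trim30a, Xaf1 and Ifi44 were called in no comparison with all libraries. Of these Parp14 had 71.7 ± 6.04 CPM in G-line HOM, 54.7 CPM in the A-line HOM library and 67.5 ± 3.78 CPM in WT (SD, n = 3 each but A-line HOM).

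The guanylate-binding proteins are GTPases, strongly induced by interferon gamma, that coat pathogen vacuoles and bacteria. Gbp6 had 15.9, 14.7 and 10.8 CPM in G-line HOM, 10.9, 12.6 and 12.7 CPM in G-line HET, 7.31 CPM in the A-line HOM library, 9.61, 13.5 and 12.9 CPM in A-line HET, and 23.4, 24.5 and 29.6 CPM in WT. All 10 mutant libraries lay below all 3 WT libraries. Gbp6 fell in G-line HOM (-0.90 ± 0.16, adjusted p = 0.000892), G-line HET (-1.10 ± 0.16, adjusted p = 0.000998), the A-line HOM library (-1.82 ± 0.26, adjusted p = 0.00158) and A-line HET (-1.10 ± 0.16, adjusted p = 0.00126), comparisons that share the WT libraries. Gbp6 was the only member called in all 4 comparisons with WT. No call ended when any 1 library was left out. With the shared pair left out, so that WT held replicate 1 alone, the call held in G-line HOM and the A-line HOM library and was lost in G-line HET (adjusted p = 0.0581) and A-line HET (0.0702). No call held with the pair as A-line HOM (0.41 to 0.987) or in both groups (0.0884 to 1).

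Gbp7 had 38.3, 40.9 and 39.3 CPM in G-line HOM, 31.7, 42.4 and 31.5 CPM in G-line HET, 26.3 CPM in the A-line HOM library, 45.3, 41.9 and 33.03 CPM in A-line HET, and 43.3, 46.97 and 57.6 CPM in WT. It was lowest in the A-line HOM library and fell there against WT (-0.91 ± 0.21, adjusted p = 0.0291); the call ended without WT replicate 3 (adjusted p = 0.0769) and under all 3 other treatments of the shared pair (0.199 to 1). In G-line HET the difference from WT was -0.49 ± 0.14, adjusted p = 0.0518, with all libraries below WT; DESeq2 called it (-0.48, adjusted p = 0.0303). Gbp5, which acts in inflammasome activation, had 10.7, 13.8 and 13.6 CPM in G-line HOM, 10.1, 13.6 and 9.75 CPM in G-line HET, 7.77 CPM in the A-line HOM library, 11.7, 13.99 and 14.8 CPM in A-line HET, and 12.5, 15.4 and 20.01 CPM in WT. It too was lowest in the A-line HOM library and fell there (-1.04 ± 0.28, adjusted p = 0.0481). The call ended without any 1 of 7 libraries (A-line HET replicates 2 and 3, G-line HET replicates 1 and 3, G-line HOM replicate 2, WT replicates 2 and 3; adjusted p = 0.0544 to 0.118), and under all 3 other treatments of the shared pair (0.298 to 1). With the shared pair as A-line HOM the log2 fold changes were 0.01 for Gbp7 and 0.21 for Gbp5. Gbp2 and Gbp3 were also lowest in the A-line HOM library, at 15.6 and 9.66 CPM, against 24.8 ± 2.89 CPM and 17.7 ± 4.01 CPM in WT (SD, n = 3), and edgeR with all libraries did not call them. DESeq2 called both lower there (Gbp2 -0.67, adjusted p = 0.026; Gbp3 -0.87, adjusted p = 0.0342), and edgeR called Gbp2 without G-line HOM replicate 1 (0.0395). Family members that are close copies of each other may share reads.

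The immunity-related GTPases, expanded in mice, act on vacuoles that hold parasites such as Toxoplasma. Irgm2 had 22.7, 23.2 and 23.1 CPM in G-line HOM, 24.1, 27.4 and 24.2 CPM in G-line HET, 14.97 CPM in the A-line HOM library, 28.1, 29.7 and 23.7 CPM in A-line HET, and 25.1, 26.6 and 35.6 CPM in WT. The 3 G-line HOM values were close to each other and all below WT, but the difference was not called (-0.34 ± 0.13, adjusted p = 0.0651). The A-line HOM library was lowest, and Irgm2 fell there (-0.96 ± 0.20, adjusted p = 0.013), a call that held with any 1 other library left out. It was lost under all 3 other treatments of the shared pair (adjusted p = 0.106 to 1), and the log2 fold change was 0.04 with the pair as A-line HOM. Iigp1, the effector of the family and the most abundant member per length, had 51.6, 68.1 and 83.3 CPM in G-line HOM, 93.6, 105 and 96.3 CPM in G-line HET, 50.6 CPM in the A-line HOM library, 120.2, 89.2 and 79.1 CPM in A-line HET, and 87.5, 78.7 and 119 CPM in WT. G-line HOM replicate 1 and the A-line HOM library were the lowest, at nearly equal levels. Iigp1 was not called in G-line HOM against WT (-0.49 ± 0.20, adjusted p = 0.0969) or against G-line HET (-0.54 ± 0.20, adjusted p = 0.095). DESeq2 called Iigp1 lower against G-line HET (-0.55, adjusted p = 0.039) and in the A-line HOM library against WT (-0.91, adjusted p = 0.0253). Irgm1 and Igtp, regulators of the family, were lowest in the A-line HOM library, at 17.2 and 11.6 CPM, and edgeR with all libraries did not call them. DESeq2 called Irgm1 lower in that library against WT (-0.51, adjusted p = 0.0473), and edgeR called Igtp lower in G-line HOM against WT without G-line HOM replicate 3 (-0.41, adjusted p = 0.0493) or WT replicate 1 (-0.43, adjusted p = 0.0453).

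Among the antigen-processing members, Psmb8, a catalytic subunit of the immunoproteasome, had 12.4, 12.1 and 10.7 CPM in G-line HOM, 9.49, 10.1 and 11.9 CPM in G-line HET, 9.31 CPM in the A-line HOM library, 12.5, 11.95 and 8.78 CPM in A-line HET, and 10.1, 12.5 and 13.6 CPM in WT. Tap1, a chain of the peptide transporter, had 11.7, 10.6 and 9.81 CPM in G-line HOM, 10.3, 11.1 and 9.67 CPM in G-line HET, 9.31 CPM in the A-line HOM library, 10.9, 10.96 and 9.998 CPM in A-line HET, and 8.203, 11.6 and 14.97 CPM in WT. In both genes the 4 groups of 3 libraries overlapped and WT replicate 3 was the highest library. In Psmb8 the A-line HOM library lay below all WT libraries, and in Tap1 above WT replicate 1. Psmb9, the other immunoproteasome subunit of the list, ranged from 3.77 to 6.71 CPM. None of the 3 was called in any comparison or under any alternative run.

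**Figure D4:**
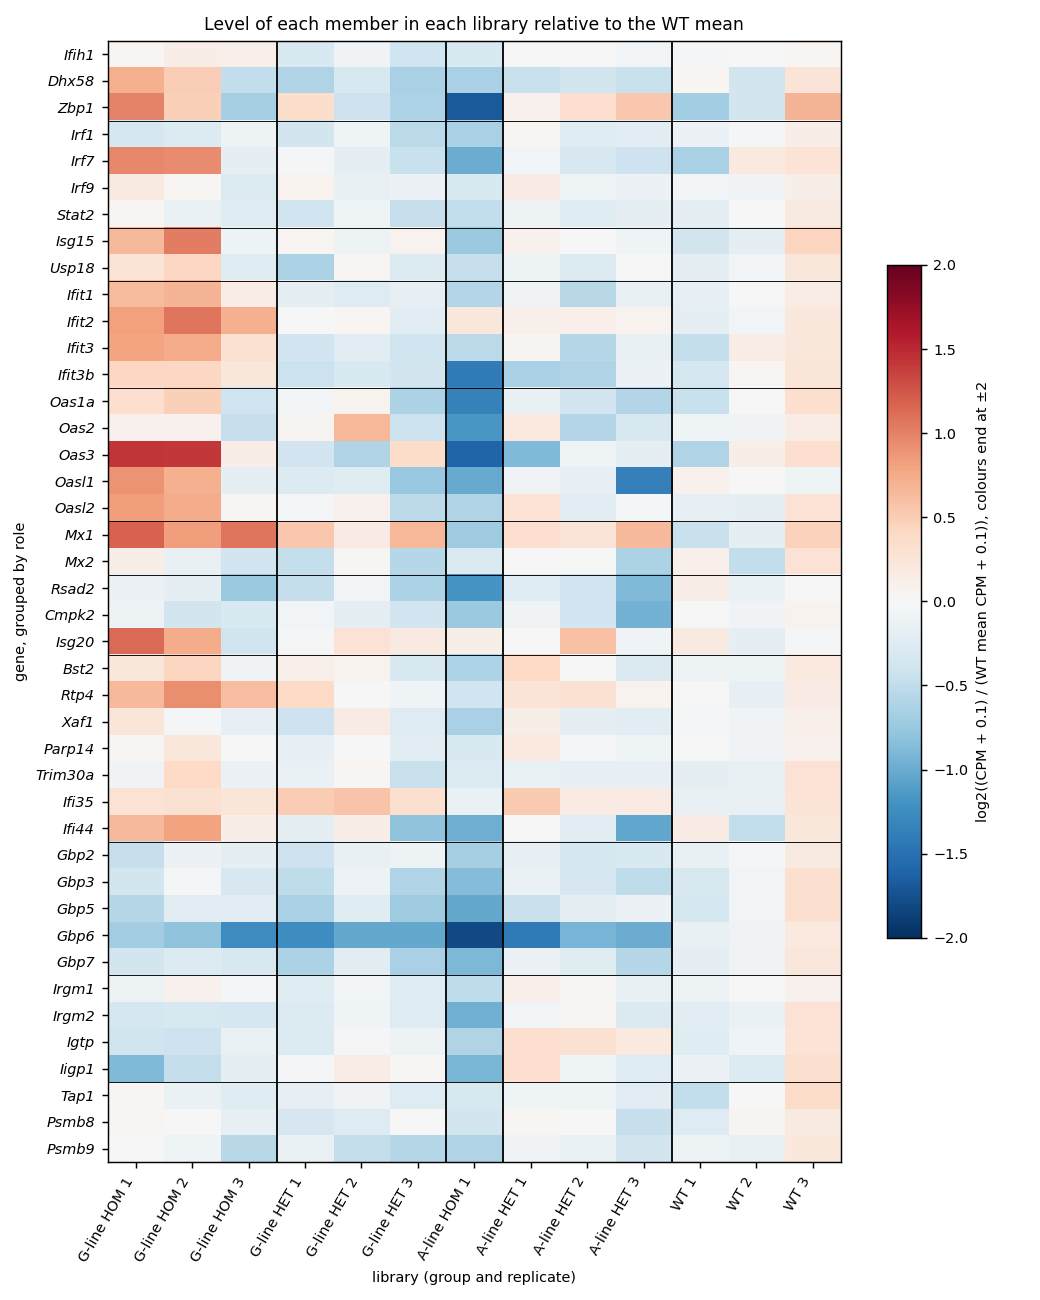
Level of each of the 42 members in each of the 13 libraries as log2((CPM + 0.1) / (WT mean CPM + 0.1)). Rows are genes grouped by role, columns are libraries grouped by genotype, and colours end at -2 and 2. Gbp6 is blue in all 10 mutant libraries, the A-line HOM column is blue in most rows, and G-line HOM replicates 1 and 2 are redder than replicate 3 in many rows.

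The libraries of a group did not behave alike. G-line HOM replicate 3 was the lowest of its group in 30 of 42 members, against 39.7% of all genes. Without it, 13 members were called in G-line HOM against WT, 10 higher and 3 lower, where 27.2% of all genes were called. The members then added were Irf7, Isg15, Isg20, Oas3 and Oasl2 as higher, and Igtp and Iigp1 as lower. Without it 14 were called against G-line HET, 13 higher and 1 lower (16% of all genes). Conversely, leaving out G-line HOM replicate 1, a library with both atrial and shifted clock transcripts, gave 3 called members against WT (21.1% of all genes) and 4 against G-line HET (8.33%). Without G-line HOM replicate 2 the count against G-line HET was 2 (6.67% of all genes), Ifit2 and Ifit3 being the members kept. Without G-line HET replicates 1, 2 or 3 it was 4, 4 and 3, where 7.63%, 7.62% and 8.49% of all genes were called. A-line HET replicate 1 was the highest of its group in 30 members and G-line HET replicate 2 in 28, against 34.6% and 35% of all genes. Without A-line HET replicate 1, 2 members were called in A-line HET against WT (11.6% of all genes). In the A-line HOM library against WT, leaving out WT replicate 3 left 2 called members (2.31% of all genes).

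The homozygous libraries were also set against each other and against A-line HET. In the A-line HOM library against G-line HOM, edgeR called 0 members, although all 42 log2 fold changes were negative with a median of -0.65. Over all genes 0.0398% were called in that comparison. At an unadjusted p under 0.05, 29 members were lower and 0 higher, against 5.44% and 6.33% of all genes, and the smallest adjusted p was that of Ifit3b (log2 fold change -1.79 ± 0.32, adjusted p = 0.0725). DESeq2 called 6 lower, where it called 1.05% of all genes. Without G-line HOM replicate 3 edgeR called 6 lower (0.873% of all genes), and without A-line HET replicate 1 it called 1 (0.223%). Against A-line HET, both edgeR and DESeq2 called 0 members (0.0227% of all genes by edgeR), with 41 negative, a median of -0.55 and 19 lower at an unadjusted p under 0.05, against 2.58% of all genes. The library lay below all A-line HET libraries in 34 members, as did 22.1% of all genes. With the shared pair as A-line HOM the median against A-line HET was 0.05.

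**Figure D5:**
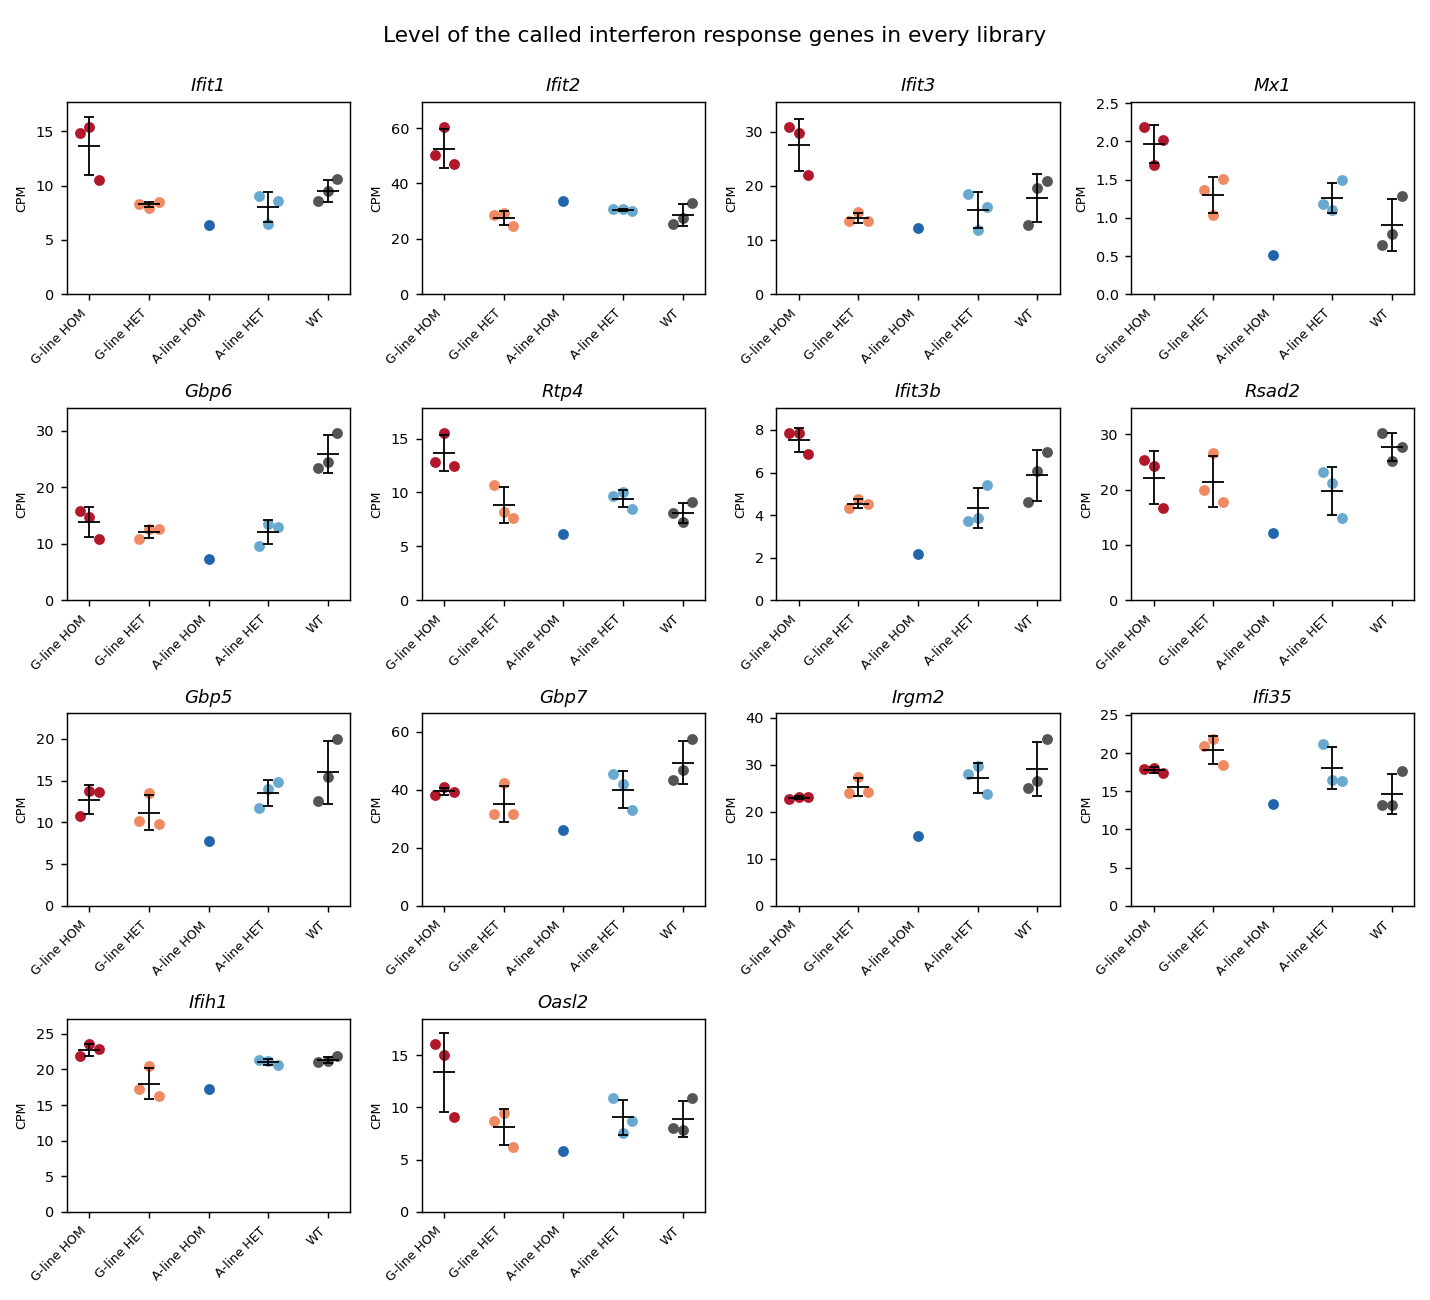
CPM of the 14 members called in at least 1 comparison, in every library. Points are libraries, horizontal bars and whiskers are the group mean and SD, and A-line HOM has 1 library. In Ifit2, Ifit3, Mx1 and Rtp4 the G-line HOM libraries are the 3 highest, and in Gbp6 all mutant libraries lie below WT.

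Of 48 other interferon-stimulated genes looked up beside the members, 46 passed the filter. Of these, 4 rose and 2 fell in G-line HOM against WT, with a median log2 fold change of -0.03. Over all genes 13.1% were called higher and 13.3% lower there. The membrane protein Ifitm3, which blocks viral entry, rose to 52.4 ± 5.21 CPM, against 36.2 ± 2.64 CPM in WT (SD, n = 3 each; 0.53 ± 0.10, adjusted p = 0.00122). Its relative Ifitm2 also rose (0.44 ± 0.09, adjusted p = 0.00284). The checkpoint ligand Cd274 fell (-0.64 ± 0.17, adjusted p = 0.0131). In the A-line HOM library against WT 3 fell (Ddx60, Gbp4 and Phf11d), 0 rose, 40 of 46 were negative and the median was -0.52. Gbp4 had 11.7 CPM in that library, against 32.4 ± 7.60 CPM in WT (-1.47 ± 0.34, adjusted p = 0.0334). In G-line HET 4 fell and 0 rose, Cd274 with the smallest adjusted p (-0.96 ± 0.17, adjusted p = 0.00428), and in A-line HET 0 were called by edgeR. Over all genes 3.54% were called lower in G-line HET and 7.96% were called in A-line HET.

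Among 18 tested genes of nucleic acid sensing and interferon induction, G-line HOM against WT had 1 higher and 2 lower. Over all genes 13.1% were called higher and 13.3% lower there. These shares also apply to the G-line HOM counts of the other lists in this paragraph. The RNA-activated kinase gene Eif2ak2 rose (0.38 ± 0.11, adjusted p = 0.0169), and the adaptor Mavs (-0.61 ± 0.17, adjusted p = 0.0185) and the nucleotidase Samhd1 (-0.30 ± 0.09, adjusted p = 0.0189) fell. Samhd1 also fell in the A-line HOM library (-0.48 ± 0.13, adjusted p = 0.0497), and Tlr3, an endosomal RNA sensor, rose in G-line HET (0.42 ± 0.11, adjusted p = 0.0342). Of 6 tested negative regulators of the pathway, 1 (Ptpn1) rose and 1 (Trim24) fell in G-line HOM. Of 14 tested antigen-processing and MHC class I genes outside the members, 2 fell in G-line HOM, the proteasome activator Psme1 (-0.73 ± 0.15, adjusted p = 0.00348) and the class I transactivator Nlrc5 (-0.52 ± 0.18, adjusted p = 0.0436). Nlrc5 also fell in the A-line HOM library (-1.196 ± 0.28, adjusted p = 0.0286). All 7 MHC class II genes were negative in G-line HOM, with 1, the invariant chain gene Cd74, called (-0.90 ± 0.28, adjusted p = 0.0409). All 7 were also negative against WT in the A-line HOM library (median -0.69) and in G-line HET (median -0.48), with 0 called in either. In A-line HET 5 were negative and 2 positive. These comparisons share the WT libraries.

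Markers of cells that can carry interferon responses were read beside these results. The summed level of 18 macrophage markers was 288 to 429 CPM in G-line HOM, 333 to 390 CPM in G-line HET, 305 CPM in the A-line HOM library, 327 to 365 CPM in A-line HET and 321 to 465 CPM in WT. In the A-line HOM library all 18 were negative against WT (median -0.40) and 0 were called by edgeR. In G-line HOM 11 of 18 were negative and 2 fell, Timd4 (-2.203 ± 0.54, adjusted p = 0.0074) and Folr2 (-1.27 ± 0.34, adjusted p = 0.0137), both markers of resident macrophages. Over all genes 13.3% were called lower in G-line HOM against WT. In G-line HOM against G-line HET 8 of the 18 were positive and 10 negative, with a median log2 fold change of -0.02. Only 1 of them was called there, the chemokine receptor Cx3cr1, which rose (2.10 ± 0.45, adjusted p = 0.0125). Over all genes 6.22% were called higher in G-line HOM against G-line HET, a share that also applies to the neutrophil and B cell markers below. Neutrophil markers summed to 2.21 to 8.06 CPM in G-line HOM, 1.39 to 1.73 CPM in G-line HET, 2.17 CPM in the A-line HOM library, 1.28 to 2.799 CPM in A-line HET and 1.85 to 3.67 CPM in WT. All 3 tested (S100a8, S100a9 and Csf3r) rose in G-line HOM against G-line HET. Ly6g had 0 counts, and Retnlg and Mpo did not pass the filter. Against WT, 0 of the 3 were called in G-line HOM, and all 3 were positive. B cell markers summed to 2.11 to 4.52 CPM in G-line HOM, 0.953 to 1.30 CPM in G-line HET and 2.57 CPM in the A-line HOM library. They summed to 2.84 to 6.33 CPM in A-line HET and 2.08 to 4.34 CPM in WT. All 4 tested were positive in G-line HOM against G-line HET and 2 were called higher, Cd79b among them (1.43 ± 0.42, adjusted p = 0.0348). In G-line HOM against WT 0 of the 4 were called, with 1 positive and 3 negative. The 4 tested T and NK cell markers summed to 1.25 to 2.29 CPM over all libraries, and Cd3e, Cd3d, Cd3g, Klrb1c, Ncr1 and Nkg7 did not pass the filter. Fibroblast markers were 2947 to 3548 CPM in G-line HOM, 2149 to 3602 CPM in G-line HET, 2680 CPM in the A-line HOM library, 2278 to 3964 CPM in A-line HET and 1410 to 2605 CPM in WT. Of the 8 fibroblast markers, 4 were called higher and 0 lower in G-line HOM against WT. There 7 were positive and 1 negative, with a median log2 fold change of 1.01. Over all genes 13.1% were called higher in that comparison. In G-line HOM against G-line HET 0 of the 8 were called. Endothelial markers were 877 to 1339 CPM in G-line HOM, 775 to 959 CPM in G-line HET, 867 CPM in the A-line HOM library, 855 to 1052 CPM in A-line HET and 1058 to 1078 CPM in WT. The part of these cell markers in the interferon results was not tested.

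By promoter class, the median log2 fold change in the A-line HOM library against WT was -0.93 in the 6 members with both cores, -0.63 in the 12 with the ISRE core alone, -0.14 in the 5 with the GAS core alone and -0.65 in the 9 with neither. In G-line HOM against WT the same medians were -0.32, 0.09, 0.28 and 0.03. These are descriptions over few genes with no test.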

How the data were processed

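Per the labels' protocols, TRIzol was used for extraction, DNase removed genomic DNA, and libraries were of the TruSeq total RNA Gold type. The deposited tables hold raw counts per gene symbol, made by the authors with bcl2fastq 2.20.0.422, Trimmomatic 0.39 and STAR 2.7.4a on mm39, per the submitters' processing notes. For the counting program, annotation and strand setting, nothing is given in the sources used here. Genes with at least 0.422 CPM, here without TMM factors (10 counts in the median library), in at least 3 libraries and a total of at least 15 were tested. edgeR 4.0.16 (R 4.3.3) fitted TMM-scaled counts of 13 distinct libraries with 1 mean per group, and the robust quasi-likelihood F test with Benjamini-Hochberg adjustment over 17588 genes gave calls at an adjusted p under 0.05. All p-values, log2 fold changes and standard errors are from that fit unless another tool is named, and the fit has 8 residual degrees of freedom, so a single A-line HOM library is assumed to vary like the other groups. The common biological coefficient of variation was 17.1%. The tests were also run on simulated counts in which all genes had the same spread. That run does not address libraries that stand apart or the genotype of the shared pair. Alternatives were DESeq2 1.42.0, RLE size factors, other filters, a replicate block, other treatments of the shared pair and libraries left out. Replicate numbers did not pair libraries. Promoter windows are RefSeq GRCm38.p6 and exon lengths GENCODE, neither of the build of the counts, and were used only for sequence and CPM per kilobase. All 42 members are accounted for: those called in a comparison with WT are given in every library, as are the 2 most abundant of each role without such a call. Up to 4 genes of each other list are named, the called ones with the smallest adjusted p first. The members and lists were chosen with earlier results of these data known. The results of 2 genes of the lists are not reported here.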

Additional observations from a re-analysis of the deposited data

How the results depend on the processing

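The number of called members depended on the treatment of the shared pair. The share of all genes called moved as well, so these counts alone do not set the members apart from other genes. For many settings below that share is not given. There a change in the count cannot be told from a change over all genes. With all libraries the share was 26.4%, 7.52% and 7.96% in G-line HOM, G-line HET and A-line HET against WT. It was 14.6% in G-line HOM against G-line HET. Without G-line HOM replicate 1 it was 21.1% in G-line HOM against WT and 8.33% against G-line HET. For A-line HOM, the shares of the main fit and of some alternatives are given above. In G-line HOM against WT (6 called), the number of called members was 2 with the pair as A-line HOM and 3 with the pair in both groups. It was 3 without libraries with atrial transcripts, 3 without libraries with shifted clock genes, and 3 to 13 with 1 library left out. In A-line HOM against WT (6) it was 12 by DESeq2, 2 with a replicate block, 0 with the pair as A-line HOM, 1 with it left out and 0 with it in both groups, and 2 to 8 with 1 library left out. In G-line HET against WT (2) it was 1 with the block, 0 under all 3 treatments of the pair, 1 without shifted-clock libraries, and 1 to 3 with 1 library left out. In A-line HET against WT (1) it was 0 under all 3 treatments of the pair and 1 to 2 with 1 library left out. In G-line HOM against G-line HET (7) it was 4 with the pair as A-line HOM, 4 with it in both, 3 without atrial-transcript libraries, 4 without shifted-clock libraries, and 2 to 14 with 1 library left out. In A-line HOM against G-line HOM (0) it was 6 by DESeq2, 2 with no filter, 3 with the pair as A-line HOM, 4 with it in both, and 0 to 6 with 1 library left out. In A-line HOM against A-line HET it was 0 under all alternatives run, with and without each library other than the A-line HOM one.

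With the pair as A-line HOM, 4 members called lower in A-line HOM against WT changed sign: Ifit3b to 0.15, Gbp5 to 0.21, Gbp7 to 0.0142 and Irgm2 to 0.0414. The cause of these shifts was not tested beyond the assignment of the pair itself. The members' median moved beyond the spread between replicates in 9 of 172 alternatives, all of them other treatments of the pair: in A-line HOM against WT to 0.03 (as A-line HOM) and -0.12 (both), in G-line HET to -0.02, in A-line HET to 0.04 (as A-line HOM and left out), in A-line HOM against A-line HET to 0.05 and 0.06, and against G-line HOM to -0.18 in both. Of 544 alternatives for 22 called results, 416 kept the call, 124 lost it and 4 changed sign. Some losses were not named with the genes above. Without atrial-transcript libraries, and without shifted-clock libraries, Ifi35 against WT and Ifih1, Oasl2 and Ifit3b against G-line HET were lost. Fitting the compared groups alone lost Ifih1, Oasl2 and Gbp5, and no filter lost Ifih1 and Rsad2. Gbp5 was also lost without atrial-transcript libraries and Rsad2 without shifted-clock libraries. The replicate block gave 4, 2, 1, 1 and 5 called members in G-line HOM, A-line HOM, G-line HET and A-line HET against WT and G-line HOM against G-line HET, and same-numbered libraries deviated together in 2 of 18 pairs (correlation over 0.1), so the numbers give no pairing. The block ended the calls of Ifit1 and Ifit3 in G-line HOM against WT and of Ifi35 in G-line HET against WT. It also ended those of Ifih1 and Oasl2 against G-line HET, and of Ifit3b, Gbp5, Gbp7 and Irgm2 in the A-line HOM library. Low-count members such as Oas3 and Zbp1 are limited by depth.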
